A study of Mus musculus with 4 samples.

Results

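The 10 genes described here encode 3 Janus kinases (Jak1, Jak2 and Tyk2), 3 transcription factors of the STAT family (Stat3, Stat5a and Stat5b) and 4 feedback inhibitors (Socs1, Socs2, Socs3 and Cish). They were taken by symbol from a deposited table of 24169 genes, and all 10 were found. RNA came from C8-D1A, an established mouse astrocyte line. There were 2 untreated libraries, called control 1 and control 2, and 2 libraries of cells kept in 1 mM MBP for 24 h, called MBP 1 and MBP 2. The labels name the agent only as MBP. The series title speaks of DBP, dibutyl phthalate, whose main metabolite is monobutyl phthalate, and of a pathway from AKT and NF-κB through IL-6 to JAK2 and STAT3.

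Cytokines of the IL-6 family bind receptors that share the signal-transducing chain gp130. Janus kinases held by the receptor then phosphorylate it and the STAT proteins, which pair, enter the nucleus and bind DNA. Among the genes that STATs switch on are those of the SOCS proteins and CIS, which bind the kinases or the receptor and dampen the signal, so their transcripts are often read as a sign of recent signalling. In astrocytes STAT3 is known for its part in cell formation and in the reaction to injury. Phosphorylation, through which the kinases and factors act, was not measured, and the values below are transcript levels.

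Transcripts of the kinases and factors lay close together in treated and untreated cells, while the feedback gene Socs1 stood lower in both MBP libraries by 33.8% of its mean FPKM. In RNA from whole cultures, less transcript per cell and fewer cells that make it cannot be told apart. FPKM is the number of fragments per kilobase of gene, scaled to a fixed number of mapped reads. Of the 10 genes, 7 reached 1 FPKM in 2 or more libraries and were tested. In limma's moderated test of log2(FPKM + 1), two-sided and adjusted by Benjamini-Hochberg over 12403 genes, 0 of these 7 passed an adjusted p of 0.05. Across all genes tested 0 passed (0%). An unadjusted p under 0.05 was found for 1201 genes (9.68%; 5.87% lower and 3.81% higher in MBP), with Socs1 as 1 of the 7 members. A second tool, limma-voom on recovered reads, called 18 of 14518 genes (0.124%), none of them a member.

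Groups that did not overlap were found for 3 of the 7, Socs1 and Tyk2 lower and Jak2 higher in MBP, where the share over all genes was 44.8%. Across all genes tested 23.5% lay lower and 21.3% higher without overlap. Log2 fold changes were negative for 5 of the 7 members and for 51.6% of all genes tested. The median log2 fold change was -0.06 over the 7 genes and -0.0048 over all genes. Stat5a, Socs2 and Cish lay under the filter, and these counts do not cover them.

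Libraries held 23571000 to 25908000 reads, as recovered from the step size of the FPKM values. The labels do not say whether libraries of 1 group were separate cultures, so p-values measure the spread between these libraries, which may be technical. With 2 libraries against 2, an exact permutation test cannot go below p = 0.333, so none was run. The astrocyte label was set against 11 markers, of which 8 stayed under 1 FPKM in all libraries. Slc1a3, a glutamate transporter of astrocytes, was listed at 0 in 3 libraries and at 0.0045 FPKM in MBP 2, and Gfap ran from 0.119 to 0.282 FPKM. The summed level of the 11 markers was 22.1 to 23.3 FPKM in controls and 22.4 to 23.02 in MBP, carried mainly by the enzyme Glul. Sox10, a factor of the oligodendrocyte and Schwann cell lineages, stood at 87.8 FPKM or above in every library. The summed level of 7 oligodendrocyte lineage markers was 119 to 123 FPKM without MBP and 109 in both MBP libraries. Most of it was Sox10, with means of 98.1 FPKM in controls and 88.7 in MBP. The sum of 6 neuron markers was 32.6 to 35.4 and 25.6 to 26.0 FPKM, nearly all of it Tubb3, with Snap25 at most 0.0062. That of 6 fibroblast and pericyte markers was 578 to 613 and 522 to 548 FPKM, nearly all of it Acta2. The part of these shifts in the results below was not tested. Of 6 markers of microglia 4 stayed under 1 FPKM, with Ptprc at most 0.0093, while Tmem119 ran from 4.47 to 5.92 and Cd68 from 3.85 to 4.45. Of 6 endothelial markers 5 stayed under 1 FPKM, with Cldn5 at 0 in all libraries, while Flt1 ran from 5.53 to 6.15.

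**Figure D1:**
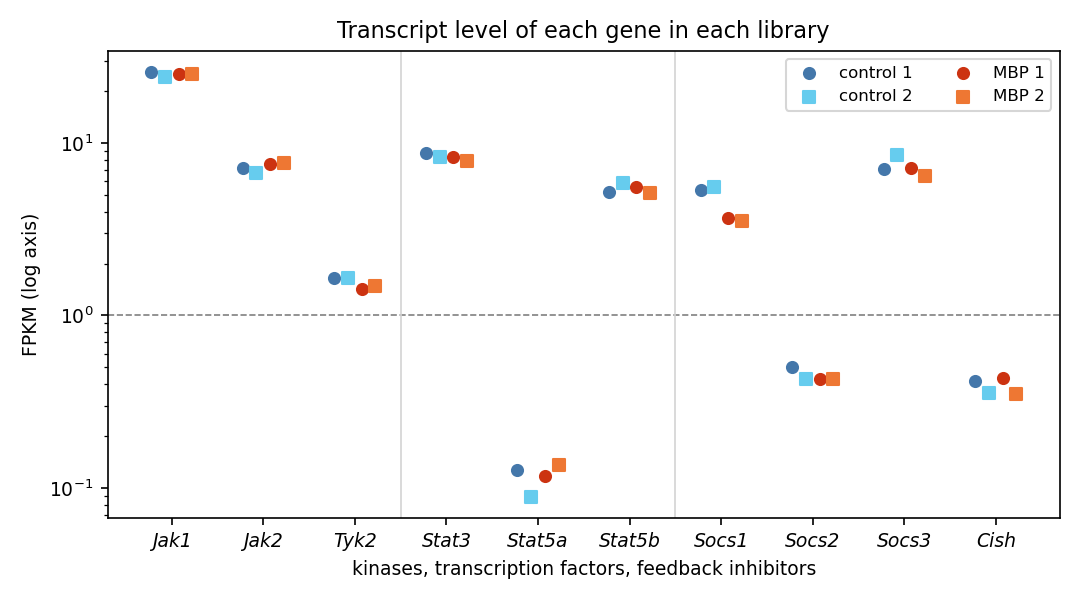
FPKM of the 10 genes on a log axis, 1 point per library, blue for control and red or orange for MBP. The dashed line marks 1 FPKM, the filter: Stat5a, Socs2 and Cish lie below it, Jak1 is highest at 24.2 to 25.8 FPKM, and Socs1 is the feedback gene whose MBP points both lie under both controls.

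Of the kinases, Jak1 was the most abundant of the 10 transcripts. It serves the receptors of interferons and of the IL-6 family, and it lies on chromosome 4 at 101152367 to 101265282, minus strand (GRCm38, as are all gene positions here). Jak1 had 25.8 and 24.2 FPKM without MBP and 25.2 in both MBP libraries. The controls bracketed the treated libraries, and the log2 fold change was 0.013, with a 95% interval of -0.13 to 0.16. Its sign turned to -0.031 without control 2 and to -0.0091 once GC content and length were corrected for, so no direction can be given.

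Jak2, the kinase of the series title, also serves hormone and growth factor receptors such as those for growth hormone and erythropoietin. It lies on chromosome 19 at 29251828 to 29313080, plus strand. Jak2 had 7.17 and 6.71 FPKM without MBP and 7.59 and 7.64 with MBP, from 878, 796, 914 and 995 reads. Both MBP libraries lay above both controls, by 0.117 on the log2(FPKM + 1) scale (SE 0.063, 95% interval -0.05 to 0.28, limma adjusted p = 0.568). The interval includes 0 and leaves room for a rise to 0.28 or a fall to -0.05. After the GC and length correction the difference was 0.066, and with 1 library left out it ran from 0.076 to 0.159.

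Tyk2, the kinase of interferon and IL-12 type receptors, was the least abundant of the 3 kinases. It lies on chromosome 9 at 21104068 to 21131243, minus strand. Tyk2 had 1.65 and 1.66 FPKM without MBP and 1.42 and 1.48 with MBP, from 276, 268, 233 and 263 reads. The MBP values lay below both controls, and the log2 fold change was -0.12 (95% interval -0.37 to 0.14, limma adjusted p = 0.684). At so low a level the added 1 shrinks the change: with a pseudocount of 0.1 it was -0.18. The GC and length correction moved it to -0.060. The antisense gene 1700084C06Rik covers 24326 bases of Tyk2 on the other strand, at 0.278 to 0.679 FPKM. Whether counting used strand is not given in the sources used here, so reads of this pair may not be told apart.

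Shares of the summed FPKM of the 4 Janus kinases were similar in the 4 libraries. Jak1 made up 73.5% and 73.2% in controls and 72.7% and 72.2% in MBP. Jak2 made up 20.4% and 20.3% in controls and 21.9% in both MBP libraries. Jak3, the kinase of lymphoid cytokine receptors and no member of this set, made up at most 1.65%, at 0.468 to 0.577 FPKM. Jak2 was 4.34 and 4.05 times Tyk2 in controls and 5.35 and 5.16 times Tyk2 in MBP, a ratio chosen after its values were seen.

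The 3 STAT genes sit side by side on chromosome 11, within 158810 bases from 100780731 to 100939540. Stat5b (minus strand) and Stat5a (plus strand) are separated by 8626 bases, and Stat5a and Stat3 (minus strand) overlap by 72 bases at their ends. Stat3, at 100885098 to 100939540, is the factor named in the title and the main STAT of IL-6 family receptors. It had 8.77 and 8.24 FPKM without MBP and 8.33 and 7.86 with MBP. These values overlap, and the log2 fold change was -0.064 (95% interval -0.23 to 0.11, limma adjusted p = 0.737). It stayed negative in all 14 alternatives tried, between -0.104 and -0.024.

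Stat5b and Stat5a are close relatives that serve growth hormone, prolactin and many other cytokines, but here their transcripts differed widely in level. Stat5b had 5.23 and 5.83 FPKM without MBP and 5.52 and 5.11 with MBP. The groups overlap, at a log2 fold change of -0.047 (95% interval -0.25 to 0.16), whose sign turned to 0.020 without control 2. Stat5a had 0.127 and 0.0892 FPKM without MBP and 0.117 and 0.135 with MBP, on only 15 to 25 reads per library. Stat5b was thus 37.8 to 65.3 times Stat5a per length. Stat5a shares 72 bases with Stat3, a gene with 1851 to 2035 reads, and how reads in the shared bases were counted is not given in the sources used here. Limma-voom gave Stat5a a log2 fold change of 0.24. Its interval leaves room for a fall to -0.56 or a rise to 1.03, so no direction can be given.

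Among other STAT genes, Stat2, a factor of the interferon response, had 4.22 to 4.58 FPKM, with groups that overlapped. Stat6, which serves IL-4, stayed at or under 0.19 FPKM, and Stat4, a factor of lymphocytes, was at 0 in all libraries.

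The feedback genes fell into an expressed pair, Socs1 and Socs3, and a pair near the floor, Socs2 and Cish. STAT dimers bind sites of the form TTCNNNGAA, so the promoter windows of RefSeq (GRCm38.p6, 250 bases before to 50 after the gene start that RefSeq gives) were searched for it. RefSeq starts differ from the deposited gene ends for several members. The windows of Socs3 and Cish lie wholly inside the deposited genes, as do those of Stat5a and a window of Stat5b. The motif reads the same on both strands. Windows were at hand for 9 of the 10 genes, all but Socs2, 11 windows in all, and Socs3 and Cish held the motif, as do 8.3% of the 32851 windows of all genes. None of the 6 kinase and factor genes held it. The windows of the feedback genes and, for comparison, of Jak2 are printed 5′ to 3′ on the strand of the gene, with the motif in capitals. They show that Socs1, the gene with the lowest ratio of MBP to control, had no match in its window, that Socs3 had 1, and that Cish had a pair, TTCCTGGAA and TTCTTGGAA, at and just past its RefSeq start. A match is a run of letters and not a measured binding site.
Socs1 (chr16:10785487-10785786, minus strand): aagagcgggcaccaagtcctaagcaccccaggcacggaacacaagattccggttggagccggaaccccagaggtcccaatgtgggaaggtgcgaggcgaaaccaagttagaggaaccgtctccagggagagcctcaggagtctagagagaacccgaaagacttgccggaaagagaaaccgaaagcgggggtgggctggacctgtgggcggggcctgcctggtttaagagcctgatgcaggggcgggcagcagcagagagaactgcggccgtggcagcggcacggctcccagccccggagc
Socs3 (chr11:117969317-117969616, minus strand): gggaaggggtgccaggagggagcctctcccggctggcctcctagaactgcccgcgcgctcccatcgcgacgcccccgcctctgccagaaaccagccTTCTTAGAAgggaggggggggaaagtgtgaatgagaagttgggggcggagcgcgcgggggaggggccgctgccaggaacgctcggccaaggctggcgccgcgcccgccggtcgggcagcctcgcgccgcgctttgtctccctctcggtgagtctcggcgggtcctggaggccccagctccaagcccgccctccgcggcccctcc
Cish (chr9:107296409-107296708, plus strand): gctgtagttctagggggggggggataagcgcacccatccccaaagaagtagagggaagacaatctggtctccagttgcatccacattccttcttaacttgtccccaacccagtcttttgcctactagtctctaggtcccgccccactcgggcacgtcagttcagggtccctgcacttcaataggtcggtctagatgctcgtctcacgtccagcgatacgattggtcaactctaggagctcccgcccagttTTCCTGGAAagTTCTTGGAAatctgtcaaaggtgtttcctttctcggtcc
Jak2 (chr19:29251553-29251852, plus strand): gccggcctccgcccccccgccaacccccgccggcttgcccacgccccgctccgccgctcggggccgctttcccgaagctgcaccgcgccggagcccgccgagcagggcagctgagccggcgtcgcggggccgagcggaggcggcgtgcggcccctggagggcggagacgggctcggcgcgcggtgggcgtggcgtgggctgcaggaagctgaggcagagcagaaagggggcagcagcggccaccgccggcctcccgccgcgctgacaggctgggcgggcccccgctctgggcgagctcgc

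Socs1 blocks the kinases directly and is best known for limiting interferon signalling. It lies on chromosome 16 at 10783808 to 10785536, minus strand. Socs1 had 5.32 and 5.56 FPKM without MBP and 3.70 and 3.51 with MBP. The gap between the groups, from 3.70 to 5.32, was wider than the spread within either. Means were 5.44 ± 0.173 and 3.60 ± 0.13 FPKM (SD, n = 2 each), and the log2 fold change was -0.48 (SE 0.0704, 95% interval -0.66 to -0.30). Its unadjusted p in limma was 0.000942 and its adjusted p 0.433, so it did not pass over all genes. Adjusted p ran from 0.141, on protein-coding genes only, to 0.644 after the GC and length correction. The difference was negative in all 14 alternatives, from -0.59 to -0.40, and with 1 library left out from -0.51 to -0.46.

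The depth behind Socs1 was modest. The exon length of GENCODE gave no whole read numbers for it, and the shortest length within its deposited span that did was 1220 bases. At that length its values correspond to 158 and 160 reads in controls and 108 and 111 in MBP. Limma-voom, which takes such read numbers into account, gave -0.59 with a wider interval of -0.96 to -0.23 (adjusted p = 0.248).

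Socs3, the inhibitor that binds gp130 and a principal brake on IL-6 signalling, lies on chromosome 11 at 117966079 to 117970047, minus strand. Socs3 had 7.06 and 8.47 FPKM without MBP and 7.13 and 6.46 with MBP, from 497, 577, 494 and 484 reads. Control 2 stood above the other 3 libraries and the groups overlapped. The log2 fold change was -0.17 (SE 0.101, 95% interval -0.42 to 0.09, limma adjusted p = 0.599). Without control 2 it was -0.049 and without control 1 it was -0.28, so its size rests on which control is kept. With the GC and length correction it was -0.073 (limma adjusted p = 0.880).

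Socs2, a brake on growth hormone signalling, had 0.504 and 0.427 FPKM without MBP and 0.429 in both MBP libraries, from 96 to 117 reads. It lies on chromosome 10 at 95385362 to 95417180, minus strand. Cish encodes CIS, which acts on receptors that use STAT5, and lies on chromosome 9 at 107296026 to 107302784, plus strand. Cish had 0.416 and 0.357 FPKM without MBP and 0.436 and 0.349 with MBP, from 54 to 67 reads. Both genes overlapped between groups. Limma-voom gave Socs2 a log2 fold change of -0.11 (95% interval -0.52 to 0.29) and Cish 0.0094 (-0.51 to 0.53).

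**Figure D2:**
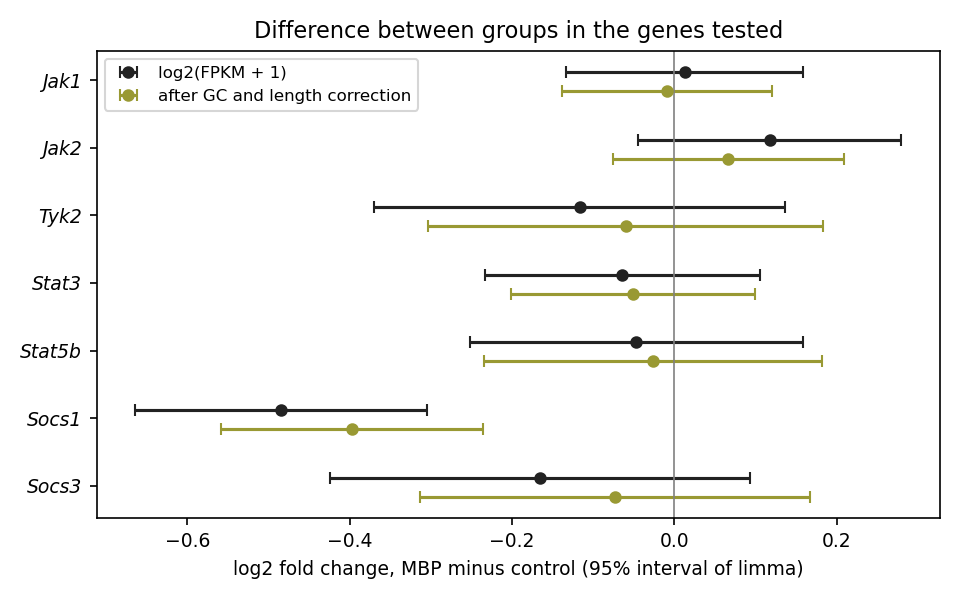
Log2 fold change of log2(FPKM + 1), MBP minus control, with limma's 95% interval, for the 7 tested genes, before and after values were corrected for GC content and length. The interval of Socs1 lies below 0 in both (-0.48 and -0.40), while those of the other 6 genes include 0. None passed after adjustment over all genes.

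Kinases and factors were then set against the feedback genes. Log2 fold changes of the 5 tested kinases and factors ran from -0.12 to 0.12, with a median of -0.047, and those of the 2 tested feedback genes were -0.48 and -0.17. In mean FPKM, however, the kinase Tyk2 and the feedback gene Socs3 were lower in MBP by the same 12.4%. With a pseudocount of 0.1 their log2 fold changes were -0.180 and -0.185, so Socs1 alone lay apart from the kinases and factors. Per library, the mean log2(FPKM + 1) of Socs1 and Socs3 less that of the 5 kinases and factors was -0.19 and -0.02 in controls and -0.37 and -0.44 in MBP. The MBP values lay below both controls, with a difference between groups of -0.31 and an SD between libraries of a group of 0.09 (n = 2 each). It is a description and was not tested, as the genes were chosen with earlier results known. Without Socs1, which left Socs3 alone on that side, the difference was -0.15, and over all 10 genes without the filter it was -0.16.

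Ratios within a library cannot be moved by scaling between libraries, and they are given as descriptions. They are not corrected for GC content, with which fold changes moved, as given below. It was 44.3% for Jak2 against 58.8% for Socs1 and 58.7% for Socs3, and its part in these ratios was not tested. Socs1 was 0.742 and 0.829 times Jak2 in controls and 0.487 and 0.460 times Jak2 in MBP. Against Stat3 it was 0.606 and 0.675 in controls and 0.443 and 0.447 in MBP. Socs1 also stood lower against Socs3, at 0.753 and 0.657 in controls and 0.518 and 0.543 in MBP. Socs3 against Jak2 was 0.985 and 1.26 in controls and 0.940 and 0.846 in MBP. Socs3 against Stat3 overlapped between groups, at 0.805 and 1.03 in controls and 0.856 and 0.823 in MBP. Summed over all members, the feedback genes came to 27.3 and 31.7 FPKM per 100 FPKM of kinases and factors in controls and to 24.3 and 22.7 in MBP.

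**Figure D3:**
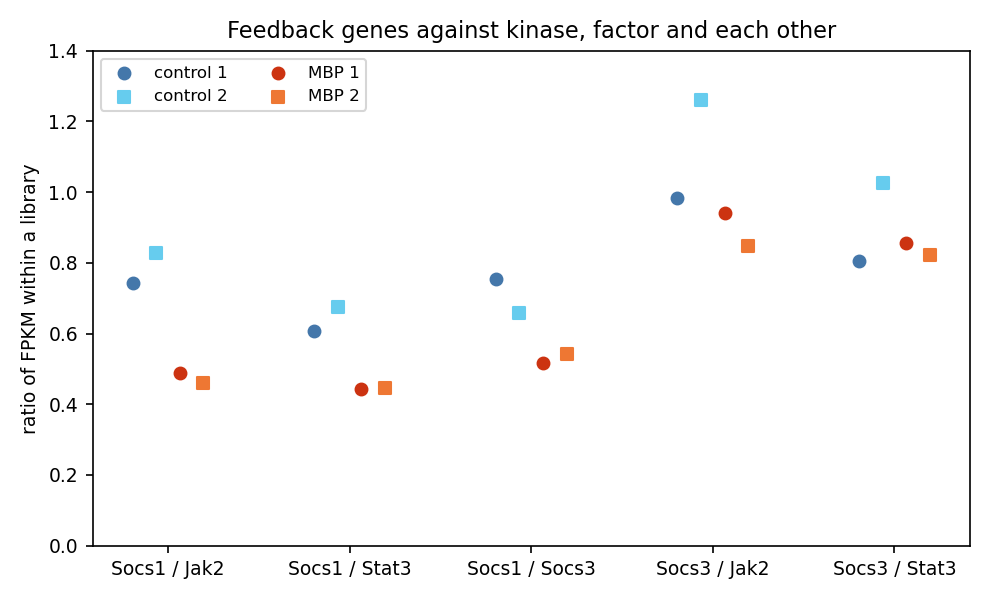
Ratios of FPKM within each library, 1 point per library, on an axis that starts at 0. The ratios of Socs1 to Jak2, Stat3 and Socs3 are lower in both MBP libraries (0.487 and 0.460 to Jak2, against 0.742 and 0.829 in controls), while Socs3 to Stat3 overlaps between the groups.

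Fold changes in this series moved with the GC content of the transcript, and the members differ in it. Spearman's rho between GC content and log2 fold change was -0.44 across 12389 genes, a description, since genes are no replicates. Median log2 fold changes went from 0.08 in the eighth of genes lowest in GC to -0.09 in the highest eighth. Socs1 and Socs3, with GC contents of 58.8% and 58.7% in their longest GENCODE transcripts, and Tyk2 with 57.0% belong to the highest eighth, while Jak2 with 44.3% belongs to the third. For Socs1 that transcript has 2908 bases, more than the 1729 of its deposited span, so its GC content and its corrected value rest on a gene model other than the one counted. In the highest eighth the 10th and 90th percentiles of log2 fold changes were -0.26 and 0.06. Socs1 at -0.48 lay outside this range, and Tyk2 at -0.12 and Socs3 at -0.17 lay inside it. Jak2 at 0.12 lay inside the range of its own eighth, -0.13 to 0.17. After the GC and length correction the difference between feedback genes and kinases and factors was -0.22, in place of -0.31. What the GC gradient arises from was not tested.

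**Figure D4:**
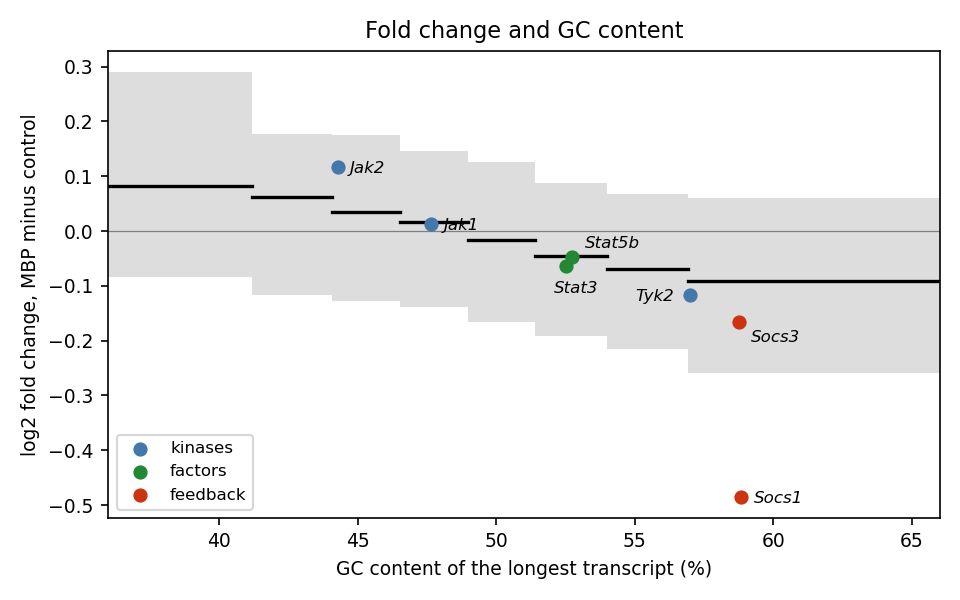
Log2 fold change, MBP minus control, against GC content of the longest transcript. Black lines are medians of all tested genes in eighths of GC content and grey bands their 10th to 90th percentiles; the outermost eighths run on past the axis. Most members lie near the line of their eighth, and Socs1 at -0.48 lies below the band.

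Ordered by mean FPKM over the 4 libraries, Jak1 (25.1) was followed by Stat3 (8.30), Socs3 (7.28), Jak2 (7.28), Stat5b (5.42), Socs1 (4.52), Tyk2 (1.55), Socs2 (0.447), Cish (0.389) and Stat5a (0.117). Jak1 stood apart from Stat3, Jak2 from Stat5b, Socs1 from Tyk2, Tyk2 from Socs2 and Cish from Stat5a in all libraries. The values of Stat3 and Socs3, of Socs3 and Jak2, of Stat5b and Socs1 and of Socs2 and Cish overlapped, so their order is not fixed by these libraries.

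The family of 8 genes that includes CIS and the SOCS proteins was dominated by members outside the feedback set. Socs5, a SOCS protein linked to EGF receptor and IL-4 signalling, held 48.8% to 50.4% of the summed FPKM, at 37.5 to 42.0 FPKM. Socs4 held 15.2% to 19.4%, at 12.7 to 14.9 FPKM. Socs1 held 6.85% and 6.68% in controls and 4.82% and 4.57% in MBP, and Socs3 9.09% and 10.2% against 9.30% and 8.40%. The sum over the family was 77.7 and 83.3 FPKM without MBP and 76.7 and 76.9 with MBP.

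Outside the feedback set Socs4 lay higher in both MBP libraries, 13.3 and 12.7 FPKM against 14.3 and 14.9, at a log2 fold change of 0.16 (limma adjusted p = 0.512) that came to 0.04 after the GC and length correction. Socs5 lay lower in both, 38.7 and 42.0 FPKM against 38.5 and 37.5, at -0.08 (adjusted p = 0.658). Socs6 and Socs7 overlapped between groups, at 3.97 to 4.73 and 8.29 to 9.46 FPKM. Of the 6 tested genes of this family and of the other kinases and factors, 0 passed in either direction, and their median log2 fold change was 0.03.

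**Figure D5:**
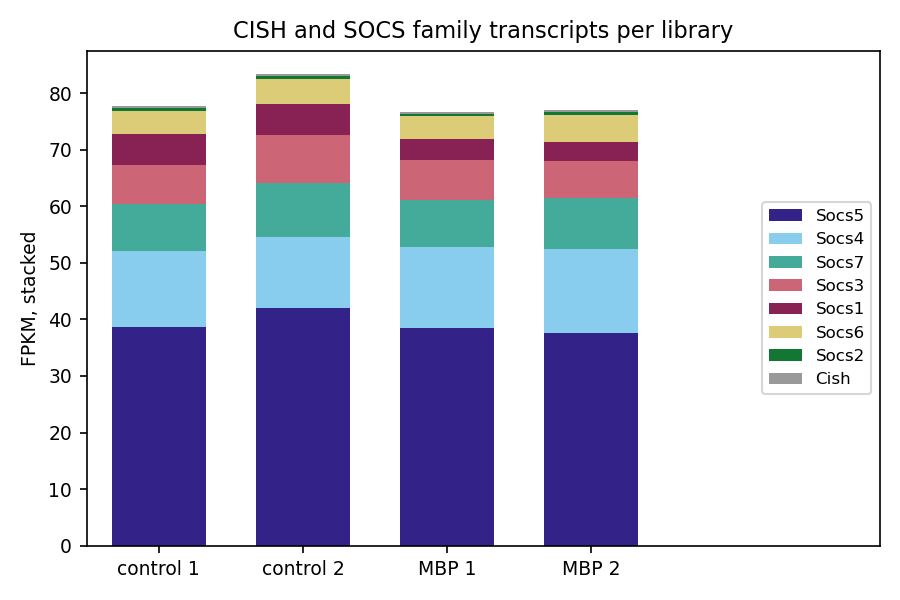
Stacked FPKM of the 8 CISH and SOCS family genes in each library, with the axis from 0. Socs5 fills 48.8% to 50.4% of each bar, Socs1 narrows from 6.85% and 6.68% in controls to 4.82% and 4.57% in MBP, and Socs2 and Cish are barely visible.

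The rest of the pathway was read from lists of receptors, regulators and targets. In each, 0 genes passed limma's test in either direction, as over all genes. Genes named from a list were picked for their low unadjusted p in it, apart from Il6 and its receptor chains. With the GC and length correction Pias4 went from -0.25 to -0.15, Ptpn2 from 0.14 to 0.07, Ghr from 0.15 to 0.08 and Gadd45g from -0.16 to -0.03. Il11 and Clcf1 moved away from 0, from 0.29 to 0.34 and from 0.17 to 0.23. Ligands and receptors of the IL-6 family had 8 tested genes of 13 in the table, with a median log2 fold change of 0.06. Il6 itself stayed at 0.122 to 0.270 FPKM, and its receptor chains Il6ra and Il6st (gp130) stood at 4.22 to 4.59 and 22.1 to 24.5 FPKM, with groups that overlapped. Il11 had 5.21 and 5.14 FPKM without MBP and 6.99 and 6.12 with MBP, and Clcf1 22.4 and 22.8 against 25.5 and 25.6. Other receptors that use Janus kinases had 7 tested genes of 13 in the table and a median of -0.02. The IL-4 receptor chain Il4ra had 5.99 and 6.74 FPKM without MBP and 4.97 and 5.46 with MBP, and the growth hormone receptor Ghr 10.4 and 10.5 against 11.7 and 11.6. Il10rb had 1.13 and 1.04 FPKM against 0.965 and 0.831.

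Other negative regulators had 9 tested genes of 12 in the table and a median log2 fold change of -0.02. Pias4, of a family of SUMO ligases that restrain STATs, had 7.49 and 6.89 FPKM without MBP and 5.58 and 6.19 with MBP, and its relative Pias2 33.6 and 33.0 against 36.9 and 37.3. Ptpn2, a phosphatase of JAKs and STATs, had 11.5 and 11.02 FPKM against 12.4 and 12.6. The 8 genes listed for the ubiquitin ligase that SOCS proteins recruit were all tested. Their median was -0.02 and their log2 fold changes ran from -0.08 to 0.07, the narrowest range of these lists. The adaptor Elob of this ligase stood at 60.5 and 65.1 FPKM without MBP and 58.2 and 60.2 with MBP, and its RING subunit Rnf7 at 40.4 and 41.8 against 38.9 and 39.1. Cul2, a cullin on this list, stood at 21.5 and 20.99 FPKM against 22.0 and 22.8.

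Known STAT3 targets had 16 tested genes of 19 in the table, 8 with positive and 8 with negative log2 fold changes and a median of -0.03. Groups did not overlap for 7 lower and 2 higher genes of the 16, where the shares over all genes tested were 23.5% and 21.3%. Cebpd, a transcription factor induced by IL-6, had 2.17 and 2.48 FPKM without MBP and 1.06 and 1.22 with MBP, a log2 fold change of -0.64 (limma adjusted p = 0.457). Limma-voom on recovered reads called Cebpd, at -1.02 (adjusted p = 0.0224). Its relative Cebpb had 2.62 and 3.19 FPKM without MBP and 1.89 and 1.46 with MBP, a log2 fold change of -0.55 (limma adjusted p = 0.493). The GC and length correction moved Cebpb to -0.39 and Cebpd to -0.61. Il4ra, given above, is also on this list. STAT5 targets, a list that holds Cish and Socs2 too, had 7 tested genes of 11 in the table and a median of -0.07. Groups did not overlap for 4 lower and 0 higher genes of the 7, beside the same shares of 23.5% and 21.3% over all genes. Pim1, Bcl6, Bcl2l1 and Ccnd1 stand on both target lists, so the lists are not independent. Gadd45g had 29.3 and 25.6 FPKM against 24.9 and 24.0, Pim1 4.001 and 5.10 against 3.88 and 3.70, and Id1 77.3 and 76.7 against 70.8 and 74.2.

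Genes with a like course over the 4 libraries were sought for Socs1, Jak2 and Stat3. Likeness was measured on log2(FPKM + 1) less each gene's mean, as the root mean square of the differences over the 4 libraries. Within 0.05 of Socs1 lay 12 genes, against 1864 for Jak2 and 1550 for Stat3. These counts cannot show whether the course of Socs1 is rare, because the differences were not scaled by the size of a gene's change. Socs1, at a log2 fold change of -0.48, lay far from the median of -0.0048 over all genes, where neighbours are few. Jak2 at 0.12 and Stat3 at -0.064 lay nearer to it. Closest to Socs1 were Hist1h2bn (0.0075), Id3 (0.013) and the miRNA gene Gm25238 (0.014). Id3, an inhibitor of basic helix-loop-helix factors, had 11.9 and 12.6 FPKM without MBP and 8.48 and 8.10 with MBP. Hist1h2bn is a histone gene with near-identical copies and Gm25238 is very short, so the values of both are uncertain. Closest to Jak2 were Synj1, Uba6 and Ttc37, at 0.0030, 0.0030 and 0.0053, and closest to Stat3 were Zc3h4, Vps36 and Tubgcp2, at 0.0043, 0.0074 and 0.0081.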

How the data were processed

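RNA-seq was run on 2 untreated and 2 MBP-treated libraries. Ribosomal RNA was removed and a strand-marking kit used, per the labels' protocols. Tools named are bcl2fastq and HISAT2 on GRCm38, per the submitters' processing notes. Not given in the sources used here: versions, counting program, annotation and strand setting. The table of FPKM deposited by the authors has 24169 genes.

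Columns were matched to samples by title, and replicates numbered in accession order. Symbols turned into dates (24) were restored from identifiers. GENCODE mouse release 21 (GRCm38) held 24121 identifiers and gave lengths and GC content. What 1 read is worth was found per library from FPKM times exon length, which gave reads and depth; of values under 1000 reads, 98.5% to 98.8% in single-exon genes and 93.8% to 94.0% in all genes were whole within 0.05. Read numbers are not independent molecules.

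Genes that reached 1 FPKM in 2 or more samples were tested as log2(FPKM + 1) with limma 3.58.1 (R 4.3.3, eBayes with trend, two-sided, Benjamini-Hochberg, threshold 0.05); fold changes on this scale understate those of low genes. In simulated data only recovery of the largest planted changes was required, and recovery of smaller ones is not reported here. Power for changes of the size seen in the members is thus not given here. The share of false calls exceeded the threshold, nearly all of them in genes shorter than the members. Limma-voom used recovered reads, keeping genes whose mean was 10 or more. The GC and length correction was a loess fit per library (span 0.5). The members and lists were chosen with earlier results of these data known. Besides the members, the other JAK, STAT and SOCS genes are named, up to 3 tested genes per list with the lowest unadjusted p, Il6 and its receptor chains, and the 3 genes most like Jak2, Stat3 and Socs1; of the genes this rule takes, some are not reported here. Alternatives were other pseudocounts, filters, scalings, spread models and gene sets, and each library left out. Markers were named after their values were seen. Figures were drawn with matplotlib 3.10.9.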

Additional observations from a re-analysis of the deposited data

How the results depend on the processing

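Genes changed by MBP stayed at 0 in limma under the other pseudocount, filters, scalings, spread model and gene sets, with the GC and length correction and with each library left out. Limma-voom called 18 genes, 1 higher and 17 lower, and 10 on protein-coding genes, a fit added after the data were seen. At an unadjusted p under 0.05 limma found 1201 of 12403 genes, and 2081 of 24169 without the filter. The numbers tested differ, so the counts alone do not compare. The split of 473 higher and 728 lower became 533 and 507 with TPM and 510 and 679 with median-of-ratios scaling, each of 12403 genes. With the GC and length correction it was 412 and 446 of 12389. It was 288 and 573 of 7582 at FPKM of at least 5, and 332 and 831 of 10366 on protein-coding genes. The feedback genes less the kinases and factors moved from -0.31 to -0.16 without the filter, which adds Socs2, Cish and Stat5a, and to -0.15 without Socs1, chosen after seeing the data; with 1 library left out it ran from -0.39 to -0.22.

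Jak2, Tyk2, Stat3, Socs1 and Socs3 kept their direction in all alternatives that could test them. With the GC and length correction signs turned for Jak1 (-0.0091), Elob (0.051), Id1 (0.0052) and Socs6 (-0.073). With libraries left out Jak1 ran from -0.031 to 0.057, Stat5b from -0.113 to 0.020, Socs6 from -0.078 to 0.128, Socs7 from -0.116 to 0.056 and Stat2 from -0.018 to 0.070. The cause was not tested. Cebpd came past the threshold in limma-voom, at -1.02 for all and for protein-coding genes (adjusted p = 0.0224 and 0.0285). No paired analysis was possible because replicates were numbered in accession order and the titles pair no libraries. With 2 libraries a group, few reads limit Stat5a, Socs2 and Cish.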
